A study of Mus musculus with 4 samples.

Results

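Mouse bone marrow cells carrying an shRNA against lncRNA-COX2 were compared with cells that the labels describe as having no shRNA, both left without stimulation. These were 2 of the 4 libraries of the study, 1 library for each side. Both came from wild-type C57BL/6 mice, and the cells were grown in DMEM with fetal bovine serum and supernatant of L929 cells, which secrete M-CSF, the growth factor of macrophages. The remaining 2 libraries came from the same kinds of cells given 100 nM of Pam3Cys4, a lipopeptide ligand of TLR2 with TLR1, for 5 h, and their values are set beside the unstimulated ones where this shows whether a difference appeared again. The library titles of the cells without shRNA read EV, an abbreviation that the labels leave unexplained, so whether these cells carried a control construct is not known. The labels name no individual mice, cultures or cell clones, and 1 library a side leaves no spread between replicates to test against. Every interval in parentheses is a 95% interval of the ratio from counting error alone.

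lncRNA-COX2 is a long noncoding RNA transcribed next to Ptgs2, the gene of the prostaglandin-forming enzyme COX-2, and is known for being induced in macrophages by Toll-like receptor ligands. An shRNA is processed by the RNA interference machinery into a small RNA that directs degradation of matching transcripts. Type I interferon signals through its receptor to a complex of factors that includes STAT2 and IRF9, which binds a promoter element known as the ISRE and switches on antiviral genes, and resting macrophages keep many of these genes at a low tonic level.

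Gene rows numbered 37681 in each library, with 47385277 gene reads in the library without shRNA and 65826838 in the library with it. A read was seen in at least 1 of the 2 libraries for 18574 rows. Levels are given as CPM, gene counts brought to a common library total with TMM factors, and values of a pair are given with the library without shRNA first. A gene counted as measured at 5 CPM or more in the higher library, which held for 9651 genes, and as higher or lower where the ratio was at least 2-fold and its interval excluded 1. The level of the targeted RNA itself was not analysed here, so the extent of its loss is not known.

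Markers of the cell type were checked first, since the labels say only bone marrow cells. All 10 macrophage markers reached the minimum, with a summed level of 6161 and 7155 CPM. The M-CSF receptor gene Csf1r stood at 2594 and 2207 CPM and the lysosomal marker Cd68 at 1210.4 and 2221 CPM. Mertk and Mpeg1 were higher with shRNA and none of the 10 was lower. None of the 12 neutrophil markers was measured, and their summed level was 0.959 and 0.48 CPM. No T or NK cell, erythroid, mast cell or stromal marker was measured either. Some markers from other lists did differ, and their part in the results was not tested. Of 10 B cell markers only the immunoglobulin chain gene Ighm was measured, which fell from 246 to 40.7 CPM while Pax5 and Ebf1 had 0 counts in both libraries. Of 9 megakaryocyte markers 2 were measured, and the platelet chemokine gene Pf4 fell from 139 to 16.7 CPM. Of 8 endothelial markers 2 were measured and both were higher, the co-receptor gene Eng at 5.05 and 106 CPM and the growth factor receptor gene Kdr at 3.76 and 9.01 CPM, and the summed level was 11.2 and 117 CPM. Of 10 dendritic cell markers only Bst2, which is also known as an interferon-responsive gene, was measured, and it was higher at 117 and 568 CPM. Osteoclast markers went both ways, with 2 of 5 measured higher and 1 lower. A smaller share of cells of some kind and less RNA per cell cannot be told apart in bulk samples such as these.

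The shRNA library differed from its counterpart in many genes and in both directions. Of the measured genes, 676 were higher with shRNA, which is 7%, and 465 were lower, which is 4.82%. With no minimum level the order turned, with 1318 higher and 1482 lower, and at a minimum of 1 CPM the counts were 934 and 791. The median gene was level, with a median log2 ratio of 0.02 and quartiles of -0.25 and 0.31, and 5349 genes (55.4%) lay between ratios of 0.8 and 1.25. Higher genes outnumbered lower ones at moderate sizes, with 287 against 218 at 4-fold and 112 against 99 at 16-fold. The order turned at the largest sizes, with 68 higher and 74 lower at 32-fold and 38 and 63 at 64-fold. Differences were most frequent among genes of low level: 25.2% of the fifth of genes with the lowest mean CPM were higher or lower, against 6.94% of the fifth with the highest. Protein-coding genes made up 642 of the higher and 439 of the lower genes, and none of the 11 measured lincRNA genes was 2-fold apart. Scaling by library totals alone would lower all log2 ratios by about 0.12, so that log2 ratios between 0 and about 0.12 change sign. That included the median over all genes, which became -0.10, and 27 of the 422 list members and named genes that were neither higher nor lower, but 0 of those that were. Genes next to the 2-fold threshold were Dock6 and Gm12482 just above it (ratios 2.002 and 2.003) and Slc24a5 and Lipa just under it (1.999 and 1.997). On the lower side, Gm10179 and Ciart were just inside (0.4998 and 0.4999) and Jag1 and Nmral1 just outside (0.5016 and 0.5019).

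**Figure D1:**
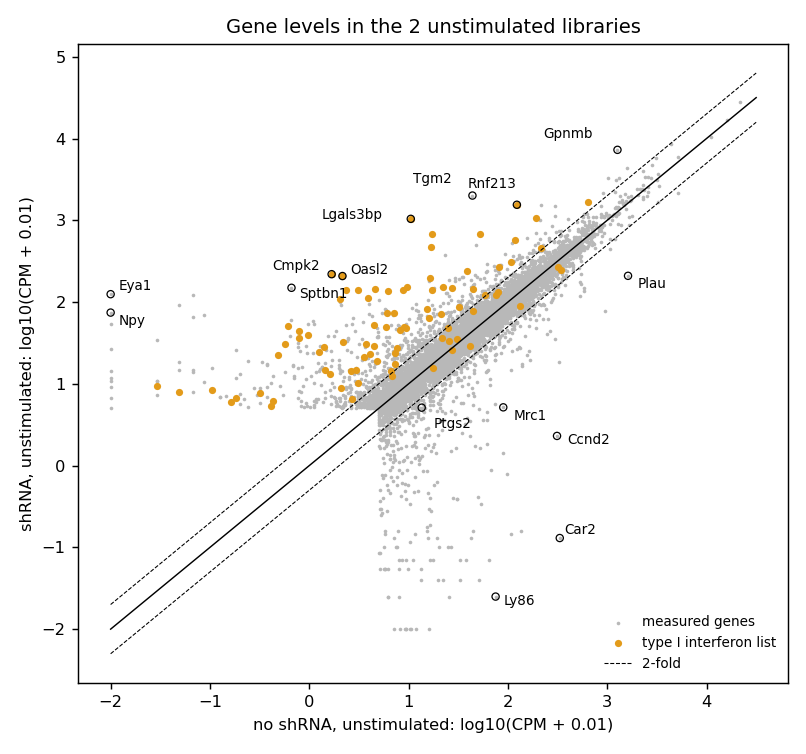
Each point is 1 of the 9651 measured genes, with its level without shRNA on the x axis and with shRNA on the y axis, both as log10 of CPM plus 0.01; orange points are the type I interferon list, circles are named genes and dashed lines mark 2-fold. Most genes lie along the diagonal, most orange points lie above the upper dashed line, and none of the interferon genes lies below the lower one.

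**Figure D2:**
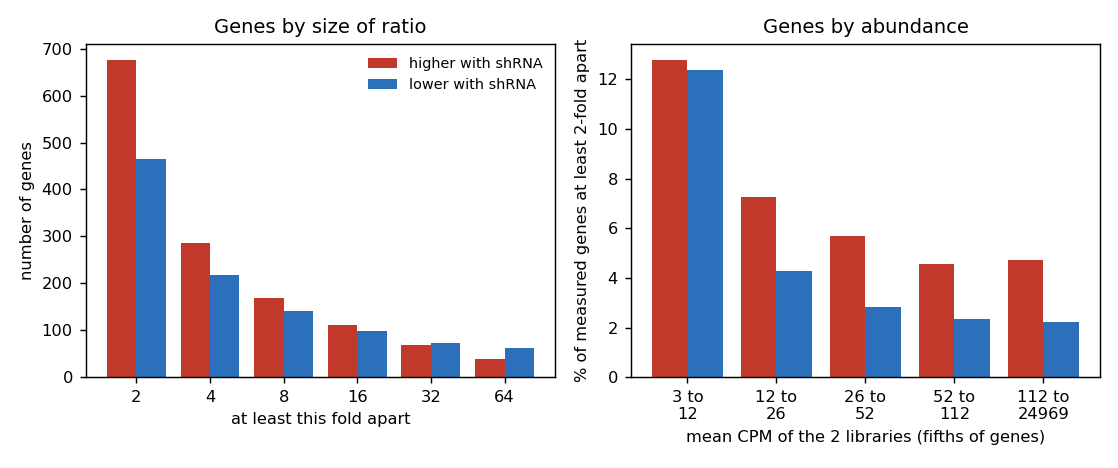
The left panel counts genes at least 2, 4, 8, 16, 32 and 64-fold apart in each direction, and the right panel gives the percentage of genes higher or lower in 5 equal classes of mean CPM. Higher genes outnumber lower ones up to 16-fold and the order turns at 32-fold, and the class of lowest level has the largest share in both directions. The 5 CPM minimum in the higher library adds to the share of that class.

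Antiviral genes of the type I interferon response were higher with shRNA. Of 100 listed genes found, 86 were measured, 72 were higher and 0 were lower, against a background of 7% higher over all measured genes. Their median log2 ratio was 2.65, against 0.02 over all measured genes. Summed over the list, the level went from 3251 to 13935 CPM, a ratio of 4.29. Interferon and MHC class I genes made up 91 of the 676 higher genes (13.5%) and 0 of the 465 lower genes, so most of what differed lay outside this group. Outside every one of the 33 lists lay 525 higher and 408 lower genes.

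The promoters printed are those of the 6 list members with the largest ratios among members whose window holds the core of the interferon element. Cmpk2, Lgals3bp and Oasl2 had larger ratios than Slfn5 but no window with such a match. Trim30a has 2 windows, of which 1 is printed. Each window runs from 250 bases before to 50 after the RefSeq start, on GRCm38.p6, in the direction of the gene, and capitals mark GAAA, any 2 bases and GAAA again, or its reverse complement. The windows are chr8:61927837-61928136 (+) for Ddx60, chr7:104507800-104508099 (-) for Trim30d, chr11:82951852-82952151 (+) for Slfn5, chr7:104465144-104465443 (-) for Trim30a, chr12:26456403-26456702 (-) for Rsad2 and chr4:156200769-156201068 (-) for Isg15.
Ddx60: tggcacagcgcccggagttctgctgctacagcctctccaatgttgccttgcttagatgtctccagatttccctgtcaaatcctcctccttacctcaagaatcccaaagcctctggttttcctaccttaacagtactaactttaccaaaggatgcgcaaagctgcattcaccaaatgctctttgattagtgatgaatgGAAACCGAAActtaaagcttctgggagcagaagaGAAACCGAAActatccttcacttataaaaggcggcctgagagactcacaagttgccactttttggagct
Trim30d: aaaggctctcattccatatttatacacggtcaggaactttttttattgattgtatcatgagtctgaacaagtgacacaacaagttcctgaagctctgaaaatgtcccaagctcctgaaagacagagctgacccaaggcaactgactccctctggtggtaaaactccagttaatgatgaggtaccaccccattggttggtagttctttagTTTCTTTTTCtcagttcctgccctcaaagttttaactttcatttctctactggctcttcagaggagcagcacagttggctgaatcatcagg
Slfn5: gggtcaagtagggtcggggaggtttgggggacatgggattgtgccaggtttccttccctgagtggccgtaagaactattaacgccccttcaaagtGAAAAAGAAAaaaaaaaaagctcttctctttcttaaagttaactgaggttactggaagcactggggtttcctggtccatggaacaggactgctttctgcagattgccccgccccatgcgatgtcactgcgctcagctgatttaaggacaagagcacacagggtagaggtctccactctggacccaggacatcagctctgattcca
Trim30a: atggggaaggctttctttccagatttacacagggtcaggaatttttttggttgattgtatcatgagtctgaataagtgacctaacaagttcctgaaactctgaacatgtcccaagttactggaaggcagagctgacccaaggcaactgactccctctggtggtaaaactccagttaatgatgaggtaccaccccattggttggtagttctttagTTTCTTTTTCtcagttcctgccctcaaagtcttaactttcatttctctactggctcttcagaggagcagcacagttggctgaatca
Rsad2: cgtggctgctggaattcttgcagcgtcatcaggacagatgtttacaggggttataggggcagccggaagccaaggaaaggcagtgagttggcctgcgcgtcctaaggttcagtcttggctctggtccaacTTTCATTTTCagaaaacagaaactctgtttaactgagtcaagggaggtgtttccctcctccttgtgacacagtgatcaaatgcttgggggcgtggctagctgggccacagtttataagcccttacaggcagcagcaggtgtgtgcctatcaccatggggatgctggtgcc
Isg15: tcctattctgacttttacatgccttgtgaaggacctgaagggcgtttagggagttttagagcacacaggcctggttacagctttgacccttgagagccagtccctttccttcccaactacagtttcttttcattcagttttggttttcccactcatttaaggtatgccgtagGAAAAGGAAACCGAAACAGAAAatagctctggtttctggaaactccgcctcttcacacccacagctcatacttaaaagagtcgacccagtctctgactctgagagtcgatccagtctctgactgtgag
The first match lay 53, 41, 155, 36, 120 and 78 bases before the start in the same order, and the Isg15 window holds 3 overlapping matches and that of Ddx60 2. Trim30a and Trim30d are neighbouring copies, and their match has the same letters.

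Matches of this kind were more frequent in windows of the higher genes than in those of the lower genes or of all genes. Searched on both strands, GAAA with a second GAAA after 2 further bases was found for 3.99% of all genes with a window (1079 of 27025) and for 41.8% of the type I interferon list (33 of 79). Among higher genes the share was 13.3% (67 of 504), and among those at least 4-fold higher it was 20.2%. Lower genes held it in 5.05% (16 of 317) and genes that were neither in 3.17%. Higher genes outside the interferon and MHC class I lists held it in 6.73%. The interferon gamma element, TTC and GAA with 3 bases between them, was found for 8.73% of higher, 6.31% of lower and 7.85% of the genes that were neither. For the NF-kB type motif, GGG and TTTCC with 2 bases between them, the shares were 4.17%, 2.52% and 1.8%, and for the AP-1 type motif TGANTCA they were 10.9%, 7.26% and 5.33%. Over all genes with a window these 3 motifs were found for 9.55%, 1.89% and 8.97%. A match describes letters in a window and is not evidence of binding.

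The sensors that detect viral nucleic acid were raised in part. Of 13 measured, 8 were higher and none was lower, at a median log2 ratio of 1.72. Ddx60, a helicase linked to RNA sensing, went from 1 to 628 counts (0.0192 and 9.43 CPM), a ratio of 491 (87.9 to 19436). Dhx58, which encodes the RIG-I-like receptor LGP2, stood at 4.57 and 145 CPM and was 31.8-fold higher (28 to 36.4). Ddx58, encoding RIG-I itself, was 21.7-fold higher (19.4 to 24.3) at 6.23 and 135 CPM, and Ifih1, encoding MDA5, was 11.8-fold higher (10.3 to 13.5) at 4.49 and 52.9 CPM. The endosomal RNA receptor gene Tlr3 was 8.38-fold higher (6.69 to 10.6) at 1.59 and 13.3 CPM. The DNA sensor gene Cgas, at 6.81 and 12.6 CPM, and its adaptor gene Tmem173, at 131 and 88.3 CPM, had ratios of 1.85 (1.63 to 2.1) and 0.675 (0.652 to 0.699) and did not reach 2-fold.

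Transcription factors that carry the interferon signal were at least 2-fold higher in 5 of 8 cases. Irf7, the factor that amplifies interferon production, rose from 16.9 to 467 CPM and was 27.6-fold higher (25.9 to 29.6). Of the ISRE-binding complex, Stat2 was higher at 17.2 and 140.2 CPM (8.15-fold) and Irf9 at 8.88 and 49.6 CPM (5.58-fold). Irf1, at 24.7 and 47.8 CPM, had a ratio of 1.93 (1.81 to 2.06). Irf8, a lineage factor of macrophages, was at 342 and 245 CPM with a ratio of 0.715 (0.7 to 0.731).

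Antiviral effectors were mostly higher, 53 of 58, at a median log2 ratio of 3.36. Cmpk2, a mitochondrial nucleotide kinase gene next to Rsad2, was 131-fold higher (106 to 164), with 1.67 and 219 CPM. Rsad2, encoding viperin, an enzyme that makes a chain-terminating nucleotide, was 60.5-fold higher (50.6 to 73) at 2.32 and 140.5 CPM. Lgals3bp, encoding a secreted galectin-binding glycoprotein, was the most abundant of those with a ratio over 64, at 10.5 and 1042 CPM (99.1-fold higher, 91.1 to 108). Oasl2, related to the enzymes that activate RNase L, was 96.8-fold higher (80.4 to 118) at 2.15 and 208 CPM. Slfn5, a member of the Schlafen family, went from 5 to 559 counts, the ubiquitin ligase gene Trim30a from 31 to 3432 and its neighbour Trim30d from 2 to 534. These genes have close copies, so their values rest on the reads that tell the copies apart and are uncertain. Rnf213, a very large ubiquitin ligase gene, gave one of the largest gains in level, from 123 to 1549 CPM. The 5 measured effectors that were not 2-fold apart were Ifitm2, Ifi27, Ifi30, Apobec3 and Aim2, named after their values were seen, with log2 ratios from -0.24 (Ifi30) to 0.73 (Ifitm2).

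The ISG15 system attaches a ubiquitin-like protein to other proteins, and 6 of its 7 measured genes were higher. Isg15, the modifier, was 57-fold higher (41.9 to 79.6) at 0.787 and 44.9 CPM. Usp18, the protease that removes it and that also restrains the interferon receptor, was 29.3-fold higher (25.4 to 33.8) at 3.86 and 113 CPM. The activating enzyme gene Uba7, the conjugating enzyme gene Ube2l6 and the ligase gene Herc6 were 6.88-fold, 3.36-fold and 5.96-fold higher. Trim56, at 44.4 and 77.9 CPM, had a ratio of 1.75 (1.67 to 1.84).

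In the Pam3Cys4 pair the list looked alike. That pair shares no library with the unstimulated pair but came from the same kinds of cells under stimulation, so it is not a replicate. There 83 of 93 measured members were higher with shRNA and 0 lower, at a median log2 ratio of 3.05, against a background of 9% higher and 5.58% lower. Irf7 stood at 67.2 and 1162 CPM in that pair, Isg15 at 9.15 and 185 CPM and Cmpk2 at 20.4 and 1121 CPM. Levels in unstimulated cells with shRNA were above those of stimulated cells without it for all 3 of these genes.

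**Figure D3:**
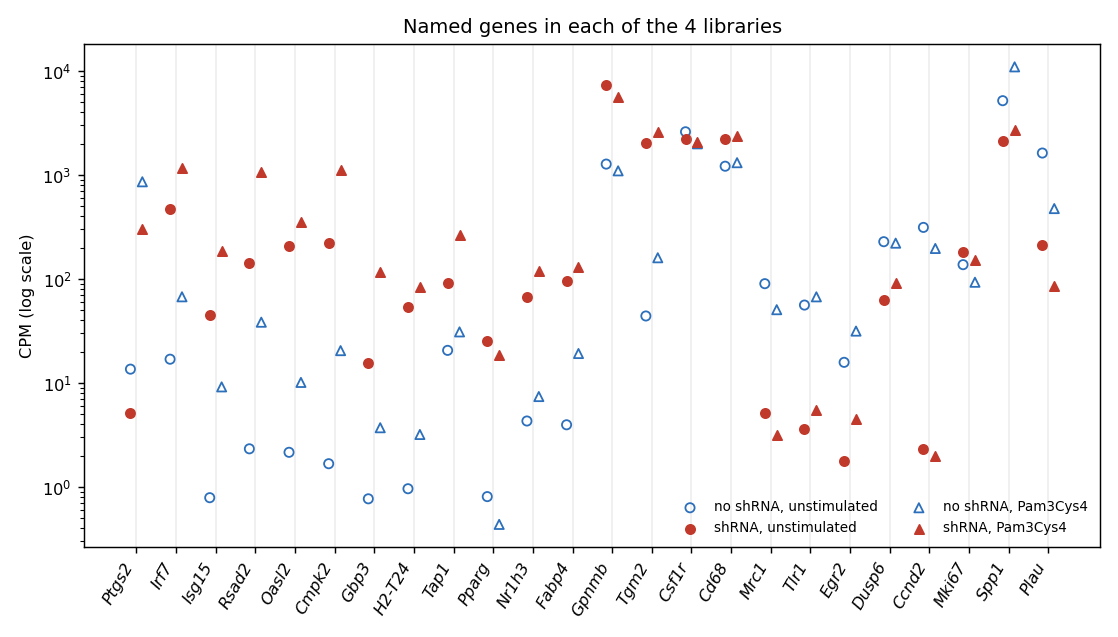
Each column is 1 gene, with its CPM on a log axis in the 4 libraries; circles are unstimulated, triangles Pam3Cys4, open symbols no shRNA and filled symbols shRNA. From Irf7 to Tgm2 the filled symbols lie above the open ones, for Csf1r, Cd68 and Mki67 they lie within 2-fold of them, and for Ptgs2 and from Mrc1 to Plau, apart from Mki67, they lie below.

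Genes upstream of this response mostly lay within 2-fold. The interferon genes themselves were close to absent: of 8 ligand genes found, 7 had 0 counts in both libraries and Ifnb1 had 2 and 10 counts, a ratio of 3.91 (0.834 to 36.7). The receptor chain gene Ifnar1 stood at 57.3 and 62.9 CPM, a ratio of 1.1 (1.05 to 1.15), and Ifnar2 at 68.3 and 73.8 CPM, a ratio of 1.08 (1.03 to 1.13). Of 27 measured genes for ligands, receptors, kinases, adaptors, factors and inhibitors, 1 was higher and 1 lower, and their median log2 ratio of 0.11 became -0.01 when scaled by library totals. The higher gene was Ikbke, a kinase that activates IRF3 and IRF7, at 30.9 and 67.9 CPM (2.2-fold). The lower one was Socs3, a feedback inhibitor of cytokine receptors, which fell from 20.9 to 5.1 CPM (4.11-fold). Irf3, encoding a factor activated downstream of the nucleic acid sensors, stood at 48 and 47.6 CPM, and Jak1 and Tyk2, the kinases of the interferon receptor, had ratios of 0.796 (0.774 to 0.819) and 1.06 (1.02 to 1.1).

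GTPase genes known as interferon gamma targets were higher, while Ifng had 0 counts in both libraries. The 8 guanylate-binding protein genes found, which attack vacuoles of intracellular pathogens, had a summed level of 2.99 and 69.6 CPM. The 4 measured ones reached the 5 CPM minimum only with shRNA, so that they counted as higher was fixed by the filter. Gbp3 stood at 0.767 and 15.4 CPM and Gbp7 at 0.921 and 29 CPM. The 7 immunity-related GTPase genes found had a summed level of 8.52 and 112 CPM. Of the 3 measured, Irgm1 stood at 5.87 and 81 CPM (13.8-fold higher, 12.3 to 15.5). Irgm2 and Igtp reached the 5 CPM minimum only with shRNA, so that they counted as higher follows largely from the filter. These families consist of near-identical neighbours, so values of single members are uncertain. Ciita, the switch of MHC class II genes, was near absent at 8 and 16 counts, and the tryptophan tRNA synthetase gene Wars, at 216 and 188 CPM, did not differ by 2-fold.

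MHC class I genes, which show peptides to cytotoxic T cells, were raised more moderately, at a median log2 ratio of 1.11. Of 20 measured, 12 were higher (60%) and none lower, against 7% and 4.82% over all measured genes. Among the chains, the nonclassical gene H2-T24 went from 0.959 to 53.8 CPM and was 56.1-fold higher (42.5 to 75.8). The shared light chain gene B2m stood at 347 and 737 CPM and was 2.13-fold higher (2.09 to 2.16), while the classical heavy chain gene H2-K1, at 493 and 943 CPM, had a ratio of 1.91 (1.88 to 1.94) and H2-D1, at 875 and 1490.1 CPM, one of 1.7 (1.69 to 1.72). Of genes that supply the peptides, 7 of 12 were higher. The transporter gene Tap1 was 4.42-fold higher (4.14 to 4.72) at 20.5 and 90.7 CPM, the loading factor gene Tapbp 3.67-fold and the immunoproteasome genes Psmb10 and Psmb8 3.59-fold and 3.05-fold higher. H2 genes have close copies, so the split among them is uncertain.

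Of 8 measured genes for MHC class II and co-stimulation, 4 were higher (50%) and 2 lower (25%), against 7% and 4.82% over all measured genes. Only 2 MHC class II genes were measured, 1 higher and 1 lower, which is too few to describe the class. Cd74, the invariant chain that escorts class II molecules, fell from 587 to 136 CPM and was 4.33-fold lower (4.23 to 4.43). The class II chains H2-Aa, H2-Ab1 and H2-Eb1 were under 2 CPM in both libraries. Ctss, the cathepsin that trims the invariant chain, was 2.19-fold higher (2.15 to 2.24) at 259 and 567 CPM. Of co-stimulation genes, Cd83 was higher at 1.11 and 5.13 CPM, Cd274, encoding PD-L1, was higher at 3.45 and 9.83 CPM, and Cd40 was lower at 11.1 and 4.38 CPM. Cd200r1 was higher too, at a log2 ratio of 1.04. Cd86, at 10.5 and 15.4 CPM, had a ratio of 1.47 (1.33 to 1.64).

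**Figure D4:**
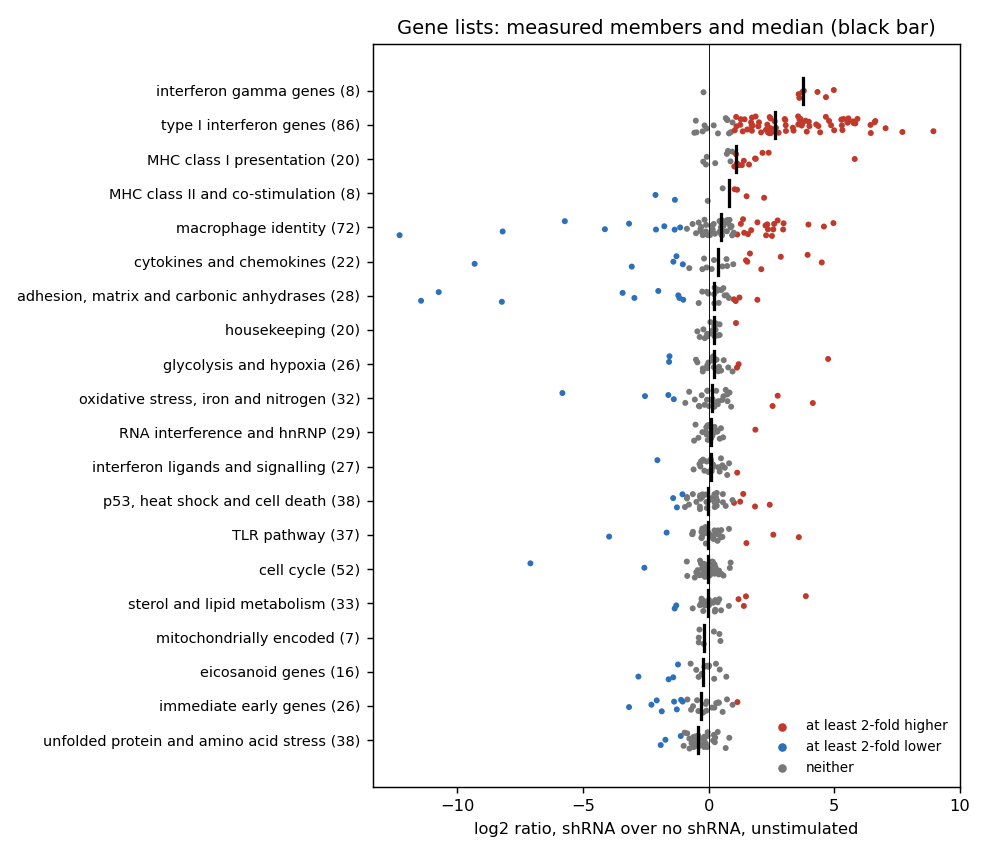
Each point is a measured gene, placed by its log2 ratio of shRNA over no shRNA in unstimulated cells, in 1 of 20 lists with the number of measured genes in brackets; black bars are list medians. The interferon, interferon gamma and MHC class I lists sit to the right of 0 with no gene 2-fold lower, while most other medians lie within 0.5 of 0 with outlying genes on both sides.

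Genes of macrophage identity split into higher and lower members. Of 72 measured, 20 were higher (27.8%) and 9 lower (12.5%), against 7% and 4.82% over all measured genes, and the median log2 ratio was 0.50. Of 22 measured transcription factors of the list, 6 were higher and 5 lower. Pparg, the nuclear receptor that drives fatty acid uptake and storage, went from 0.806 to 25.2 CPM and was 31.2-fold higher (23 to 43.5). Nr1h3, encoding the sterol sensor LXR alpha, was 15.7-fold higher (13.7 to 18) at 4.3 and 67.4 CPM. Mitf, a factor of lysosome and osteoclast genes, was 3.84-fold higher (3.7 to 3.99) at 62.2 and 239 CPM, and Bhlhe41 5.13-fold higher (4.72 to 5.58) at 12.5 and 64.1 CPM. Factors on the lower side were Cebpe (7.9 and 0.15 CPM), a regulator of granulocyte maturation, Egr2 (15.8 and 1.76 CPM), Maf (109 and 25.5 CPM), Klf4 (10.4 and 4.08 CPM) and Cebpa (28.7 and 13.1 CPM).

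Receptors of the same list were higher in 9 (28.1%) and lower in 3 (9.38%) of 32 measured cases, against 7% and 4.82% over all measured genes. Of 18 enzyme and lysosome genes 5 were higher (27.8%), 1 was lower (5.56%) and 12 were neither. The fatty acid carrier gene Fabp4 stood at 3.95 and 94.9 CPM (24-fold) and Fabp5 at 29.5 and 198 CPM (6.7-fold). The scavenger receptor gene Cd36 was 5.95-fold higher (5.65 to 6.26) at 32.2 and 191 CPM. Gpnmb, a lysosomal membrane glycoprotein of macrophages, gave the largest gain in CPM among genes 2-fold higher, from 1269 to 7270.0 CPM (5.73-fold higher, 5.68 to 5.78). The sialic acid receptor gene Siglec1, also known as an interferon-responsive gene, was 4.8-fold higher (4.7 to 4.89) at 211 and 1010.1 CPM. Mertk, a receptor for dying cells, was 7.9-fold higher (6.95 to 9.02) at 4.91 and 38.8 CPM, while Gas6, which encodes its bridging ligand, fell from 945 to 77.2 CPM (12.2-fold lower, 11.9 to 12.6). Mrc1, the mannose receptor gene, was 17.5-fold lower (15.6 to 19.5) at 89.8 and 5.15 CPM. Arg1, the arginase of alternatively activated macrophages, fell from 915 to 4 counts (17.6 and 0.06 CPM). Ly86, whose product MD-1 pairs with the receptor RP105, went from 3920 to 1 counts and was 5011-fold lower (899 to 197955). In the Pam3Cys4 pair Pparg stood at 0.435 and 18.3 CPM, Nr1h3 at 7.38 and 119.7 CPM, Mrc1 at 50.5 and 3.17 CPM and Ly86 at 41.2 and 0.0547 CPM, each on the same side as in unstimulated cells. Maf did not stay on its side, with 43.3 and 95.8 CPM in that pair.

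Targets of LXR and sterol efflux were in part higher, with 3 of 8 measured genes (37.5%), against 7% over all measured genes. Apoc2, an apolipoprotein that activates lipase, was 14.6-fold higher (12.2 to 17.6) at 2.46 and 35.8 CPM. The cholesterol exporter gene Abcg1 was at 202 and 534 CPM, a ratio of 2.64 (2.58 to 2.7), and Abca1 at 69.5 and 122 CPM, a ratio of 1.75 (1.68 to 1.82). Npc2, which carries cholesterol out of the lysosome, was 2.28-fold higher (2.24 to 2.32) at 327 and 747 CPM. Of the desaturase genes, Fads2 was 2.8-fold higher and Fads1 2.44-fold lower.

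Among genes at least 2-fold higher, the largest gains in CPM after Gpnmb were those of Psap, a lysosomal sphingolipid activator precursor (1589 and 4364 CPM), Lgals3, encoding galectin-3 (1007 and 3248 CPM), and Tgm2, a protein-crosslinking transglutaminase. Tgm2 went from 44 to 2007 CPM and was 45.7-fold higher (43.8 to 47.6). Vim, an intermediate filament gene, stood at 1238 and 3104 CPM, the proteoglycan gene Sdc3 at 214 and 1549 CPM and Plin2, which coats lipid droplets, at 296 and 1483 CPM. Gm15427, a processed pseudogene in the same group, can share reads with its parent gene. The 10 genes with the largest gains had 6703 CPM in sum without shRNA and 27800.4 with it. Of these 10, 9 were higher in the Pam3Cys4 pair too, against 9% over all measured genes there.

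On the opposite side, the largest losses in level were those of Spp1, encoding osteopontin, and Plau, encoding the urokinase protease. Spp1 fell from 5164 to 2128 CPM (2.43-fold lower, 2.41 to 2.44) and Plau from 1621 to 209 CPM (7.74-fold lower, 7.6 to 7.88). The endocytic adaptor gene Dab2 fell from 582 to 150.4 CPM, the motor gene Myo10 from 536 to 117 CPM and Olfm1, a secreted olfactomedin gene, from 546 to 166 CPM. Hmox1, the heme-degrading oxygenase gene, fell from 529 to 174 CPM. Tmsb4x, an actin-binding peptide gene with many pseudogene copies, was 2-fold lower (1.98 to 2.03) at 1196 and 597 CPM. In the Pam3Cys4 pair 9 of the 10 genes with the largest losses, which include Gas6 and Cd74, were lower as well, against 5.58% over all measured genes there.

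Immediate early genes were more often lower than higher. Of 26 measured immediate early and MAP kinase feedback genes, 8 were lower (30.8%) and 1 higher (3.85%), against 4.82% and 7% over all measured genes, at a median log2 ratio of -0.32. The zinc finger factor gene Egr1 stood at 19.5 and 4.65 CPM (4.19-fold lower) and Egr2 at 15.8 and 1.76 CPM (8.97-fold lower). Dusp6, the ERK phosphatase gene, was 3.64-fold lower (3.51 to 3.77) at 228 and 62.5 CPM, and Spry2, a further brake on receptor kinases, was 2.59-fold lower (2.27 to 2.97) at 12.7 and 4.91 CPM. Fos was the higher one, at 15.5 and 34.3 CPM (2.21-fold higher, 2.04 to 2.4). After Pam3Cys4 the levels were 50.3 and 5.74 CPM for Egr1, 220.4 and 91.4 CPM for Dusp6 and 16.6 and 91.4 CPM for Fos, in the same directions.

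Cell cycle genes did not move as a group. Of 52 measured, 0 were higher and 2 lower (3.85%), against 7% and 4.82% over all measured genes, and none of the replication or mitosis genes reached 2-fold. The proliferation marker Mki67 stood at 137 and 182 CPM and Pcna, the replication clamp gene, at 171 and 226 CPM. The lower genes both act at the entry into S phase: Ccnd2, encoding cyclin D2, fell from 16283 to 153 counts (312 and 2.3 CPM) and was 136-fold lower (116 to 161), and the kinase inhibitor gene Cdkn2b was 5.88-fold lower (5.34 to 6.49) at 45 and 7.65 CPM. Ccnd1, encoding the related cyclin D1, was at 1079 and 591 CPM with a ratio of 0.548 (0.541 to 0.555).

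Genes of the Toll-like receptor pathway were 2-fold apart at shares close to those over all genes. Of 37 measured genes of the pathway, 3 were higher (8.11%) and 2 lower (5.41%), against 7% and 4.82%, and of 9 receptor genes 2 were higher and 1 lower. Tlr1, the partner of TLR2 in sensing Pam3Cys4, fell from 56 to 3.6 CPM and was 15.5-fold lower (13.6 to 17.8), while Tlr2 itself stood at 70.1 and 80.4 CPM with a ratio of 1.15 (1.1 to 1.2). Tlr8, an endosomal RNA receptor gene, was 12-fold higher (9.13 to 16.1) at 1.04 and 12.5 CPM. No kinase or adaptor among 12 reached 2-fold. Of the NF-kB group, Bcl3 was higher at 7.06 and 20.0 CPM and Tnip3 lower at 58.5 and 18.4 CPM.

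Ptgs2, the coding neighbour of the targeted RNA, was lower at rest. It had 706 and 340 counts (13.5 and 5.1 CPM) and was 2.65-fold lower (2.33 to 3.03). Of 16 measured eicosanoid genes 4 were lower (25%) and 0 higher, against 4.82% and 7% over all measured genes. The prostacyclin receptor gene Ptgir fell from 154 to 22.3 CPM (6.93-fold lower, 6.55 to 7.33), the phospholipase gene Pla2g4a, which frees the substrate of COX-2, from 81.8 to 35.1 CPM, and the leukotriene synthase gene Ltc4s from 10.0 to 3.33 CPM. After Pam3Cys4, Ptgs2 stood at 857 and 304 CPM and Ptgir at 288 and 76.6 CPM. Ptgs2 and Pla2g4a were adjacent among the measured genes of chromosome 1, where the median log2 ratio was -0.19. Whether position had a part in their lower levels was not tested.

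Cytokine and chemokine genes measured at rest went both ways. Of 22 measured, 7 were higher (31.8%) and 5 lower (22.7%), against 7% and 4.82% over all measured genes. In the Pam3Cys4 pair 7 of 37 were higher (18.9%) and 13 lower (35.1%), against 9% and 5.58%. Csf1, encoding M-CSF, was 15.3-fold higher (13 to 18.2) at 2.9 and 44.4 CPM. The interferon-responsive chemokine Cxcl10, which attracts T cells, was 7.31-fold higher (6.91 to 7.74) at 25.5 and 186 CPM, and Ccl5 was 4.27-fold higher (3.79 to 4.82) at 6.16 and 26.3 CPM. The membrane-bound chemokine gene Cx3cl1 went from 12 to 347 counts (0.23 and 5.21 CPM), while its receptor gene Cx3cr1 fell from 45.6 to 13.4 CPM. Cxcl14 fell from 1982 to 4 counts and was 633-fold lower (247 to 2327). The inflammatory cytokine gene Tnf was 2.04-fold lower (1.9 to 2.18) at 43.2 and 21.2 CPM, and Il1rn, the antagonist of interleukin-1, was 3.12-fold higher (2.99 to 3.27) at 45.3 and 141 CPM.

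Counts in the stress and metabolic lists are read against the same 7% and 4.82%. The unfolded protein and amino acid stress list had a median log2 ratio of -0.41, with 3 of 38 lower (7.89%) and 0 higher. Its lower genes were Herpud1 (73.6 and 22.4 CPM) and Creld2 (205 and 95.2 CPM) of the ER and Aldh1l2 (74.1 and 19.8 CPM) of mitochondrial folate metabolism, and the chaperone gene Hspa5 stood at 1664 and 1103 CPM with a ratio of 0.663 (0.656 to 0.669). Of 26 glycolysis and hypoxia genes, 3 were higher (11.5%) and 2 lower (7.69%), with the enolase gene Eno2 at 0.307 and 8.27 CPM and the hypoxia-responsive gene Ndrg1 at 105 and 35.6 CPM. Of 32 genes of oxidative stress, iron and nitrogen, 3 were higher (9.38%) and 4 lower (12.5%). Of those listed for iron, 3 of 7 were lower. These were Hp, encoding the hemoglobin-binding haptoglobin (16.1 and 0.285 CPM), Slc40a1, the iron exporter ferroportin (26.6 and 4.61 CPM), and Slc11a1, an iron and manganese transporter of the phagosome (132 and 50.4 CPM). Of 5 genes for nitric oxide and arginine 3 were higher. The arginine transporter gene Slc7a2 was 17.7-fold higher (15.4 to 20.4) at 4.01 and 70.9 CPM, and Acod1, which makes the antibacterial metabolite itaconate, was 6.71-fold higher (6.18 to 7.31) at 11.9 and 79.7 CPM. Nos2, the inducible nitric oxide synthase, had 8 and 11 counts. Of 38 p53, heat shock and cell death genes, 5 were higher (13.2%) and 3 lower (7.89%). Of 17 measured for inflammasomes and cell death, 3 were higher (17.6%), 1 was lower (5.88%) and 13 were neither. Casp1 was higher at 4.43 and 15.9 CPM, Casp4 at 2.28 and 5.93 CPM and Mlkl, the executor of necroptosis, at 8.31 and 19.8 CPM.

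Genes of RNA interference, the machinery that processes an shRNA, were higher at a share close to that over all genes. Of 13 measured, 1 was higher (7.69%) and 0 lower, against 7% and 4.82%. The higher one was Ago4, which encodes an Argonaute protein, at 4.09 and 14.8 CPM (3.63-fold higher, 3.13 to 4.23). Dicer1 stood at 65.7 and 78.2 CPM. None of 16 hnRNP genes, which encode nuclear RNA-binding proteins, reached 2-fold, and log2 ratios ran from -0.25 to 0.58. Of 20 reference genes B2m alone was 2-fold apart (5%), and none of the 7 mitochondrially encoded genes was. Counts in these small groups are read against the same 7% and 4.82%.

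A set of genes was read almost only in 1 of the libraries. On the higher side, 24 genes had 3 counts or fewer without shRNA, 10 of them with 0, and 21 were higher in the Pam3Cys4 pair too. Over all measured genes of that pair 9% were higher. Eya1, a developmental phosphatase and transcription cofactor gene, had 0 and 8317 counts. The ratio is 2169 when the 0 is replaced by a floor of 3 counts, which is not an interval bound. Npy, encoding neuropeptide Y, had 0 and 4954 counts, a ratio of 1292 with the same floor. The ubiquitin ligase gene Nedd4 had 0 and 3640 counts, a ratio of 949 with that floor. Tspan7, a tetraspanin gene, had 3 and 8029 counts, Lipg, encoding endothelial lipase, 3 and 4313, Adamts1, a matrix protease gene, 4 and 4630, and the growth factor receptor gene Fgfr1 0 and 794. Sptbn1, a membrane skeleton spectrin gene, had 34 and 9958 counts. After Pam3Cys4, Eya1 stood at 0.0198 and 69.4 CPM, Npy at 0 and 117 CPM and Lipg at 0.218 and 465 CPM.

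On the lower side, 27 genes had 3 counts or fewer with shRNA, 9 of them with 0. In the Pam3Cys4 pair 17 of the 27 were lower, against 5.58% over all measured genes there. The carbonic anhydrase genes Car2 and Car12, whose enzymes hydrate carbon dioxide, went from 17349 to 8 counts (2772-fold lower, 1406 to 6422) and from 2667 to 2 counts (1704-fold lower, 471 to 14082). Nid2, a basement membrane gene, had 5606 and 9 counts, Farp1, a guanine nucleotide exchange factor gene, 3353 and 4, and Cers4, a ceramide synthase gene, 1342 and 1. Ccdc85c, Slco5a1, Irx2 and Arap2 had 837, 618, 557 and 537 counts without shRNA and 0 with it. The secreted protease inhibitor gene Slpi fell from 2339 to 10 counts and the osteoclast fusion gene Dcstamp from 823 to 30, whereas the osteoclast protease gene Ctsk was 6.09-fold higher (5.56 to 6.68) at 10.2 and 61.9 CPM. Of the 15 higher and 15 lower genes whose intervals lay farthest from 1, 13 and 14 were at least 2-fold apart in the same direction in the Pam3Cys4 pair. Over all measured genes of that pair 9% were higher and 5.58% lower.

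Y-linked genes differed between the cells as well. Ddx3y had 3 and 921 counts, Kdm5d 0 and 730 and Uty 1 and 320, while of their X-linked relatives Ddx3x stood at 249 and 259 CPM, Kdm5c at 195 and 195 CPM and Kdm6a at 32 and 32.5 CPM. Eif2s3y had 3 and 0 counts, and Xist, the RNA of the inactive X chromosome, had 0 counts in both libraries. The Pam3Cys4 pair showed the same, with Kdm5d at 0.0198 and 12.1 CPM and Ddx3y at 0.0792 and 20.3 CPM. The cells with and without shRNA thus differed in transcripts of the Y chromosome, and with 1 library a side the shRNA and any other difference between the cells cannot be told apart.

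Ratios also varied with position in the genome. The median log2 ratio was -0.19 on chromosome 1 and -0.21 on chromosome 19, where 66.1% and 69.4% of measured genes lay below 0, and -0.18 and -0.16 in the Pam3Cys4 pair. Chromosome 3 had a median of -0.10, and the other autosomes and the X chromosome lay between -0.03 and 0.10. With library totals all 20 medians lay below 0, from -0.33 to -0.02, so the 12 that had been above 0 changed sign. Measured genes were then put in chromosome order and cut into 470 runs of 20 neighbours, of which the last on a chromosome could hold as few as 10. A stretch of 3 consecutive runs on chromosome 3, from Hps3 to Spg20, chosen after its values were seen, had medians of 0.84, 0.85 and 0.90, and the other 467 runs lay between -0.59 and 0.46. Of its 60 genes 54 had a log2 ratio above 0, 20 were higher and 1 lower, and the median ratio was 1.83. In the Pam3Cys4 pair the same stretch had a median log2 ratio of 0.96, with 52 of 58 genes above 0. The following run, from Tm4sf1 to Ccnl1, had a median of 0.31, and the rest of the chromosome after it -0.17. On chromosome 1, the run that ended with Pla2g4a had a median of -0.27. The next run, which began with Ptgs2, had a median of -0.41, with 4 of its 20 genes lower.

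**Figure D5:**
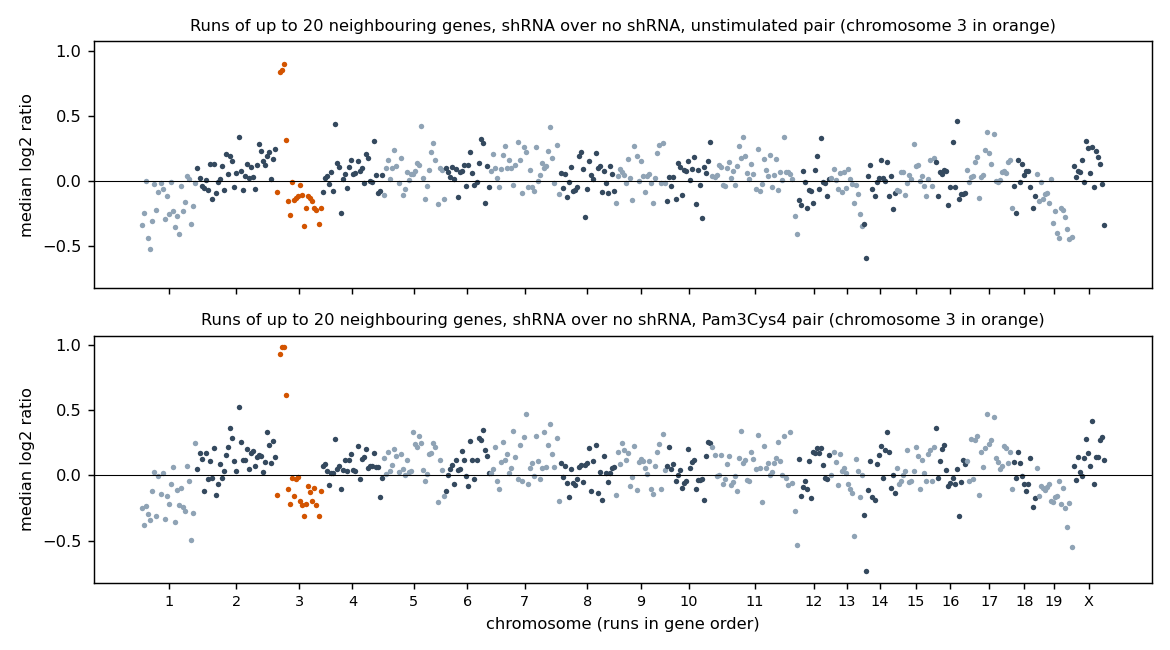
Each point is the median log2 ratio of shRNA over no shRNA in a run of up to 20 neighbouring measured genes, along chromosomes 1 to 19 and X, for the unstimulated pair (top) and the Pam3Cys4 pair (bottom). Chromosome 3 is orange, and 3 of its runs stand at 0.84 to 0.90 in the top panel, above the other 467 runs.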

How the data were processed

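Messenger RNA of the 4 libraries was read at 50 bp per the labels' protocols. Per the submitters' processing notes, CASAVA 1.8, TopHat and HTSeq were used on NCBIM37, and for the last 2 the version, and for the counting the annotation release and strand setting, were not given in the sources used here. Whole-number read counts per gene were deposited by the authors and used as they stand. Summary lines for reads with no gene, 32.5 to 34.4% of all totals, were left out. Reads aligned to several places, 27.0 to 29.9% of all totals, are among them, so genes with close copies are undercounted. Library totals were adjusted by TMM factors from edgeR 4.0.16 in R 4.3.3 over 4 libraries (1.01 with and 1.10 without shRNA, unstimulated). Ratios have exact 95% conditional binomial intervals (scipy 1.17.1), which cover counting error only. Where 1 library had a count of 0, the ratio used 3 counts instead. It is given without an interval and is not a 95% bound. No p-value was computed. The ratio script was tested on simulated counts. Symbols, for 32642 of 37681 IDs, and biotypes come from GENCODE vM21, gene order and promoters from RefSeq GRCm38.p6; since the builds differ, no coordinate of the counts is given. Members of 33 gene lists and the comparison were chosen with earlier results of these data known. Named genes were the 15 per direction with interval bounds farthest from 1, the 10 per direction with the largest CPM difference, and up to 6 measured members per list role, with ligands, receptors, markers and sex-linked genes; edges of the 2-fold threshold, genes at the ends of chromosome runs, and genes stated as such were named after their values were seen. A few of the genes that the naming rule reached are left out of the text. Other scalings, filters and floors were tried.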

Additional observations from a re-analysis of the deposited data

Results flagged for a closer look

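Among measured genes, 4 were at least 2-fold apart in both shRNA comparisons but in opposite directions, and each is 1 library against 1, so the difference between the comparisons was not tested. Maf, a macrophage lineage factor gene, had a log2 ratio of -2.09 in unstimulated cells (109 and 25.5 CPM) and 1.15 in the Pam3Cys4 pair (43.3 and 95.8 CPM). Cd40, a co-stimulation receptor gene, had -1.34 (11.1 and 4.38 CPM) and 1.75 (70.5 and 237 CPM). Saa3, an acute phase protein gene, had -1.0 (9.73 and 4.85 CPM) and 1.43 (232 and 624 CPM). Arid5a, which encodes an RNA-binding protein known to stabilise cytokine transcripts, had 1.27 (2.19 and 5.27 CPM) and -1.77 (25.1 and 7.38 CPM). Arid5a and Saa3 stood close to the 5 CPM minimum in unstimulated cells.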

How the results depend on the processing

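No paired analysis was possible because each group had 1 library, and for the same reason no replicate could be left out. The counts of higher and lower genes stayed within 1.5 times of 676 and 465 with library totals (593 and 556), TMM over the 2 libraries (688 and 471), median-of-ratios factors (667 and 474), upper-quartile factors (628 and 512), a 10 CPM minimum (546 and 336), the interval bound itself past 2-fold (579 and 411) and a floor of 1 count. With no filter they were 1318 and 1482, and at a minimum of 1 CPM 791 genes were lower. Of 248 named genes that were higher or lower, 239 remained so with library totals, 246 with median-of-ratios and 243 with upper-quartile factors. These medians of log2 ratios changed sign: with library totals alone interferon ligands and signalling -0.00827, oxidative stress, iron and nitrogen -0.0256, RNA interference and hnRNP -0.00650, cell cycle, DNA replication -0.0257, chromosome 10 -0.0799, chromosome 11 -0.0643, chromosome 15 -0.0956, chromosome 17 -0.0200, chromosome 2 -0.0369, chromosome 4 -0.0787, chromosome 5 -0.0614, chromosome 6 -0.0520, chromosome 7 -0.0242, chromosome 8 -0.0934, chromosome 9 -0.0817, chromosome X -0.0227. With no filter MHC class II and co-stimulation -0.0351, TLR pathway 0.0345, adhesion, matrix and carbonic anhydrases -0.304. With a minimum of 1 CPM TLR pathway 0.0345, p53, heat shock and cell death 0.0565. With TMM over the 2 libraries p53, heat shock and cell death 0.0565. With a minimum of 10 CPM chromosome 18 0.00190. The cause was not tested. The highest run median on chromosome 3 was 0.63 with runs of 60 genes and 0.78 with library totals, alternatives chosen after seeing the data. Depth limits what can be said of genes with few counts, and no setting stands in for spread between cultures.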
